A study of Mus musculus with 9 samples.

Results

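The brush border is the carpet of microvilli on the apical face of the proximal tubule, the nephron segment that recovers most of what the glomerulus filters. Each microvillus holds a bundle of actin filaments, scaffold proteins anchor transporters at its membrane, and cadherin links between neighbouring tips keep the microvilli packed. The same membrane carries peptidases and other hydrolases that cut filtered peptides and sugars before their products are taken up.

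Expression of 10 brush border genes was described in kidneys of wild-type C57BL/6 mice, out of 13081 genes in the table. The genes were taken by symbol, and all 10 were present and passed the filter on low values. The members with structural roles were Vil1, Pdzk1, Cdhr2, Cdhr5 and Ush1c, and the members that encode hydrolases were Mep1a, Mep1b, Dpep1, Dpp4 and Treh. Treh encodes trehalase, which cuts a sugar and is not a peptidase.

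Kidney RNA from mice of 3 months (young, n = 4) was compared with that from mice of 16 months (old, n = 5), to ask how these genes differ with age in the absence of any mutation or treatment. The labels name each sample as a kidney but do not say whether cortex and medulla were sampled alike, and they do not state sex. Reads of the oligo(dT)-primed libraries come from transcript 3′ ends, and the table held 4486406 to 6355095 reads per library. Values are normalised counts: the reads of a gene after each library was scaled by its own size factor. Titles of young and old libraries begin with different letters, and differences in handling that go with those letters and differences of age cannot be told apart. Nothing in the labels pairs young with old libraries or ties libraries to litters, so p-values measure the spread between these 9 samples.

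Of the 10 genes, 6 passed the test of old against young kidneys at an adjusted p-value under 0.05 over all 12667 genes tested, 2 higher and 4 lower in old. Across all genes tested 59.7% were called, 29.2% higher and 30.5% lower, so the members' share lay at the background. Young and old values were fully separate for 5 of the 10 genes, 1 higher and 4 lower in old, against 49% of all genes, 23.3% higher and 25.7% lower. The median log2 fold change was -0.11 over the members and 0.00 over all genes (-0.003), and the median size of the change was 0.27 over the members and 0.56 over all genes. The members moved in both directions. The change was largest for the meprin subunit gene Mep1b, which fell, while the other meprin subunit gene, Mep1a, rose. In bulk kidney RNA, fewer proximal tubule cells and less RNA per cell cannot be told apart.

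**Figure D1:**
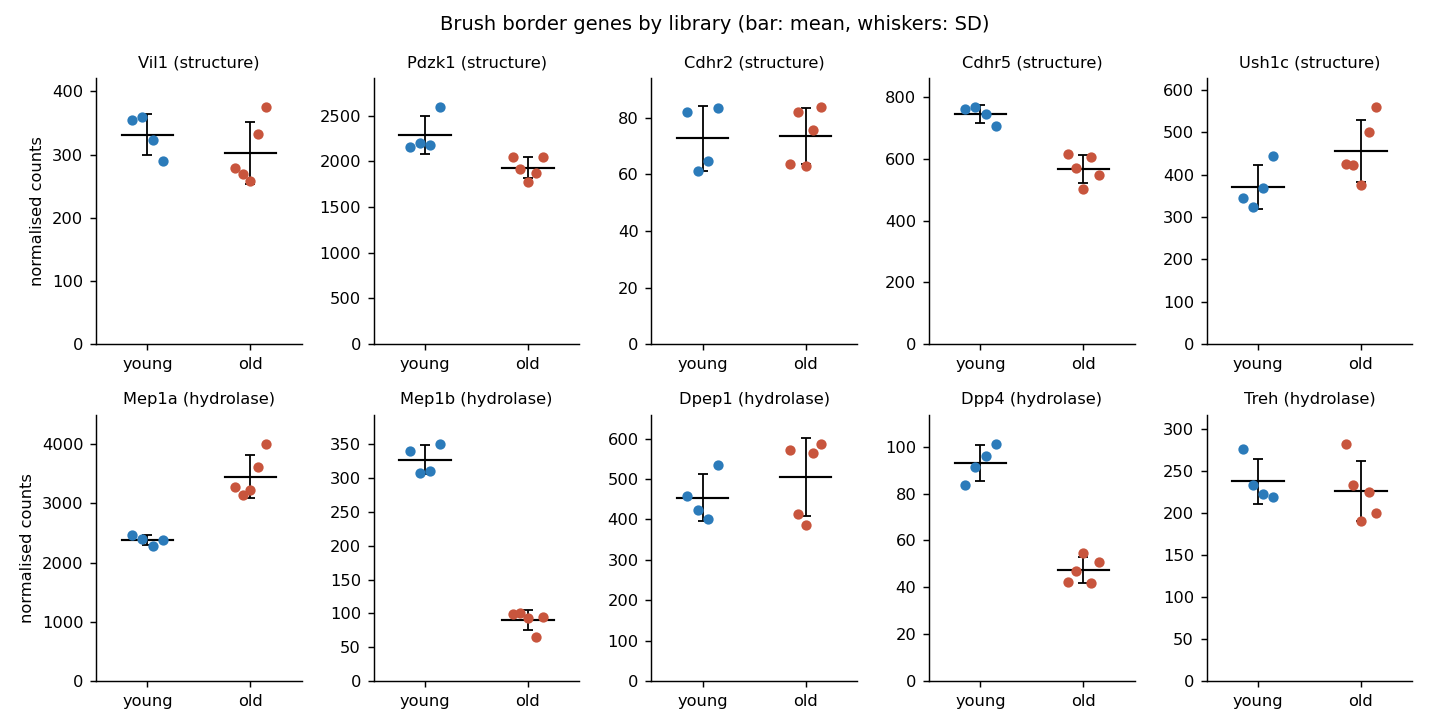
Normalised counts (y axis, linear, from 0) of the 10 brush border genes in each of the 4 young and 5 old libraries, with the mean as a bar and the SD as whiskers. Mep1b (64.4 to 101 in old, 308 to 351 in young), Dpp4, Cdhr5, Pdzk1 and Mep1a separate the age groups, and the other 5 genes overlap.

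The hydrolase genes held the largest differences. Mep1a and Mep1b encode the alpha and beta subunits of meprin, a zinc metalloprotease of the astacin family that is abundant in the rodent kidney. The beta subunit is a transmembrane protein and holds the alpha subunit, which lacks a lasting membrane anchor of its own, at the cell surface.

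Mep1b stood at 341, 308, 311 and 351 normalised counts in young replicates 1 to 4. In old replicates 1 to 5 it stood at 99.0, 101, 93.3, 64.4 and 94.4. Every old library was below every young library by a wide margin. Its mean was 328 ± 21.6 in young (SD, n = 4) and 90.4 ± 14.8 in old (SD, n = 5), a log2 fold change of -1.86 (standard error 0.14, adjusted p 2.13e-09 by limma) and an old-to-young ratio of 0.275 (95% CI 0.225 to 0.336). The size of this change exceeded that of 94.3% of all genes tested. The call rested on 69 to 416 reads per library and held under every alternative tried, with log2 fold changes between -1.92 and -1.66.

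Mep1a went the other way. It stood at 2471, 2397, 2279 and 2385 normalised counts in the young libraries and at 3271, 3134, 3222, 3613 and 4009 in the old ones. All 5 old libraries were above all young libraries. The log2 fold change was 0.53 (standard error 0.09, adjusted p 8.31e-05 by limma), a ratio of 1.44 (95% CI 1.26 to 1.65). In size it was near the middle of all genes, above 47.4% of them. Mep1a lies on chromosome 17 (43474324 to 43502812, minus strand, GRCm38, GENCODE vM21).

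The contrast between the meprin genes was described as a ratio within each library, which does not depend on how libraries are scaled. The Mep1a to Mep1b ratio of normalised counts, with 1 added to each, ran from 6.77 to 7.76 in young and from 30.8 to 55.3 in old kidneys. On the log2 scale it was 2.86 ± 0.08 (SD, n = 4) in young and 5.25 ± 0.34 (SD, n = 5) in old, a difference of 2.39 or 5.24-fold (exact permutation test, two-sided, p = 0.0159, adjusted over the 4 ratios tested 0.0317). This p-value is the smallest that the test as computed here can give with 4 against 5 libraries. It follows from the values above, since Mep1a was higher and Mep1b lower in every old library than in every young one, and the ratios were chosen with earlier results of these data known, so it is no separate evidence. The 50-base sequences in the last 500 bases of coding transcripts of Mep1a, Mep1b and each of the other members were shared with other genes at 0%, so reads of the meprin genes were not confused with each other there.

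Dpp4 encodes dipeptidyl peptidase 4, a serine exopeptidase that clips dipeptides from peptide ends and inactivates incretin hormones. It had the fewest reads of the members, 36 to 112 per library. Its level was 83.5, 91.3, 96.1 and 101 normalised counts in the young libraries and 42.4, 47.0, 54.8, 42.0 and 50.9 in the old ones, with no overlap. The log2 fold change was -0.96 (standard error 0.16, adjusted p 3.85e-05 by limma), an old-to-young ratio of 0.513 (95% CI 0.408 to 0.646). Dpp4 lies on chromosome 2 (62330073 to 62412231, minus strand, GRCm38, GENCODE vM21).

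Dpep1 encodes a GPI-anchored dipeptidase that also converts leukotriene D4. Its values were 459, 424, 400 and 534 in young libraries and 572, 415, 386, 563 and 588 in old libraries, so the groups overlapped. Its log2 fold change was 0.14 with an adjusted p-value of 0.385 by limma, and the 95% interval of the ratio ran from 0.907 to 1.34. In GENCODE vM21 another gene, Gm20388, overlaps the end of Dpep1 on the same strand, so its count is uncertain. The Dpep1 to Dpp4 ratio was 4.13 to 5.44 in young and 6.95 to 13.2 in old kidneys, 2.14-fold higher in old (exact permutation test, two-sided, p = 0.0159, adjusted 0.0317). Most of this difference was the fall of Dpp4 given above (-0.96 on the log2 scale, beside 0.14 for Dpep1). This ratio too was chosen with earlier results known, so it is no separate evidence.

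Treh stood at 277, 233, 223 and 219 in young and at 283, 234, 191, 225 and 201 in old libraries. The groups overlapped almost entirely, and the log2 fold change was -0.08 (adjusted p 0.618 by limma, 95% interval of the ratio 0.788 to 1.14).

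Among the structural members the largest difference was smaller than the largest among the hydrolase members (-0.39 for Cdhr5, -1.86 for Mep1b). Vil1 encodes villin, which bundles the actin core of the microvillus. It stood at 355, 360, 323 and 291 normalised counts in young and at 278, 269, 259, 332 and 376 in old libraries. The highest value of all was in an old library and the 3 lowest were too, so the groups overlapped. The log2 fold change was -0.14 (adjusted p 0.332 by limma), and the 95% interval of the ratio, 0.759 to 1.08, did not reach the ratios seen for Mep1b or Dpp4.

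Pdzk1 encodes a scaffold with PDZ domains that binds the tails of apical transporters. Its values were 2160, 2197, 2183 and 2595 in young and 2043, 1912, 1775, 1873 and 2044 in old libraries. The groups did not overlap, and the log2 fold change was -0.24 (standard error 0.09, adjusted p 0.0282 by limma). This call depended on the processing. It was lost without young replicate 4 (-0.18, adjusted p 0.121), without old replicate 3 (-0.21, 0.0563) or old replicate 4 (-0.23, 0.0509), and when libraries were centred on a list of proximal tubule genes (-0.08, 0.425).

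Cdhr2 and Cdhr5 encode the protocadherins that reach between neighbouring microvilli and bind each other at the tips. Cdhr5 fell. It stood at 760, 768, 745 and 705 in young and at 615, 569, 501, 605 and 549 in old libraries, with every old value below every young one. Its log2 fold change was -0.39 (standard error 0.09, adjusted p 0.00122 by limma), a ratio of 0.761 (95% CI 0.666 to 0.87). Cdhr5 lies on chromosome 7 (141269083 to 141276786, minus strand, GRCm38, GENCODE vM21).

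Cdhr2, its partner, had 54 to 100 reads per library, at 81.9, 61.2, 64.7 and 83.3 normalised counts in young and 63.7, 82.0, 62.9, 75.6 and 83.8 in old libraries. Its log2 fold change was 0.02 (adjusted p 0.931 by limma), with a 95% interval of the ratio from 0.799 to 1.28, and its direction changed between alternatives. The Cdhr2 to Cdhr5 ratio was 0.0809 to 0.119 in young and 0.105 to 0.154 in old kidneys, 1.33-fold higher in old, with overlapping groups (exact permutation test, two-sided, p = 0.0476, adjusted 0.0635).

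Ush1c encodes harmonin, the scaffold that ties the cytoplasmic tails of these cadherins to the microvillus tip. Its level was 346, 324, 369 and 444 in young and 426, 423, 375, 500 and 560 in old libraries, with 2 of the 5 old libraries above every young one. The log2 fold change was 0.30 (standard error 0.12, adjusted p 0.046 by limma). This was the weakest call among the members, and 6 of the 9 libraries each took it away when left out, with adjusted p-values from 0.0515 (without old replicate 1) to 0.152 (without young replicate 2). Without young replicates 1 and 3 in turn it was 0.115 and 0.0843, and without old replicates 4 and 5 in turn 0.0992 and 0.119. The log2 fold change stayed positive throughout, between 0.22 and 0.39 with 1 library left out, and was 0.30 without young replicate 3 and 0.32 without old replicate 1. The Vil1 to Ush1c ratio differed by -0.44 on the log2 scale (exact permutation test, two-sided, p = 0.0635, adjusted 0.0635). It lay between 0.637 and 0.69 in all old libraries and spread from 0.656 to 1.11 in young ones.

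Transcription of brush border genes depends in part on the hepatocyte nuclear factor HNF4, so the stretch before the gene start was read for its motif. Hnf4a itself was lower, at 1863 ± 153 in young (SD, n = 4) and 981 ± 112 in old (SD, n = 5), a log2 fold change of -0.93. RefSeq promoters (GRCm38.p6) were found for 9 of the 10 members (all but Mep1b), with 10 starts in all. In the 250 bases before the start, the HNF4 core AAAGTCC was present in 1 of the 10, counting both strands, and in 3.58% of all 32851 promoters. The matches were in Treh (226 and 70 bases before the start), a member that was not called. Its promoter is shown with the motif in capitals, beside those of Cdhr5 and Dpp4, which fell and hold no match. A match is a description and not a binding site. The windows are Treh at chr9:44672983-44673232 (plus strand), Cdhr5 at chr7:141276787-141277036 (minus) and Dpp4 at chr2:62412232-62412481 (minus), each written 5′ to 3′ on the strand of its gene.
Treh: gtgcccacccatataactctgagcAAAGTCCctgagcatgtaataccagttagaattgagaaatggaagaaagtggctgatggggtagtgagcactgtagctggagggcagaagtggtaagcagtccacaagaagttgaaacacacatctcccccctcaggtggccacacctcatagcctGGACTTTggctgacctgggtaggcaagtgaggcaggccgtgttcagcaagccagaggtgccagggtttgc
Cdhr5: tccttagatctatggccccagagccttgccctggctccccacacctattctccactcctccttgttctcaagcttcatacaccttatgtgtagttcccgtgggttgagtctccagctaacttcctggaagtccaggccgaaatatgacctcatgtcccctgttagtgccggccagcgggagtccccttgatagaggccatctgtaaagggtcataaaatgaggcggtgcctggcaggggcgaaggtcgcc
Dpp4: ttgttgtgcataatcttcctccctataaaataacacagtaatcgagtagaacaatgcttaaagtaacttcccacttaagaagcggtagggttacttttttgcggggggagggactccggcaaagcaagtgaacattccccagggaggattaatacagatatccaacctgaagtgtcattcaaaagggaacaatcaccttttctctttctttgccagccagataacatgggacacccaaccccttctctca

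**Figure D2:**
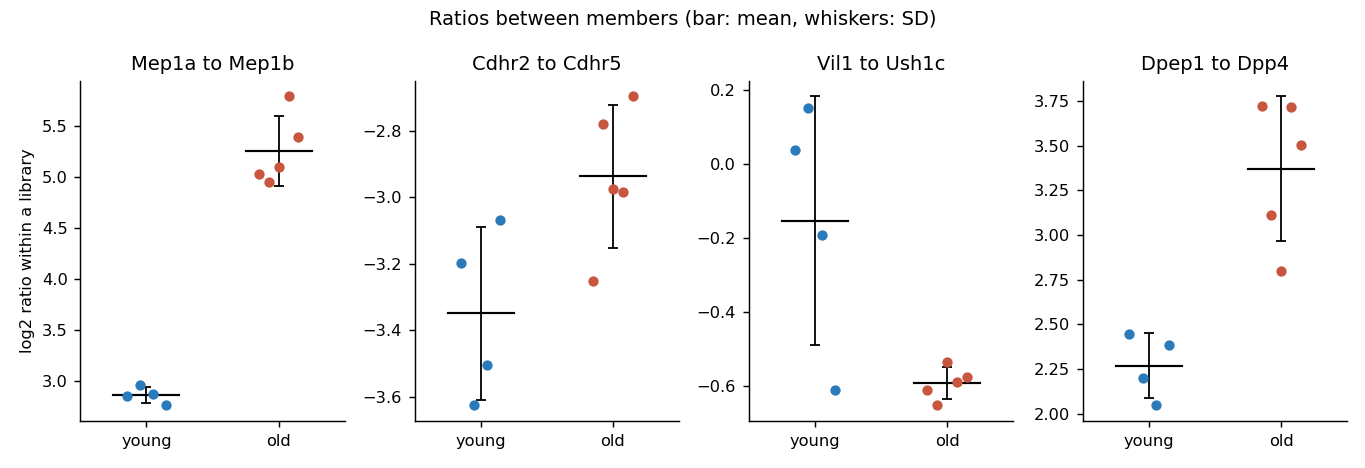
Log2 ratio of normalised counts within a library (y axis, with its own range in each panel) for 4 pairs of members, with the mean as a bar and the SD as whiskers over 4 young and 5 old libraries. The Mep1a to Mep1b and Dpep1 to Dpp4 ratios of all old libraries lie above those of all young libraries, and the other pairs overlap.

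The other genes of the brush border were taken from lists of structural genes (21 listed, 20 in the table) and of hydrolases (15). Of these 35 genes 30 were called (85.7%, against 59.7% of all genes), 17 higher and 13 lower in old, and their median log2 fold change was 0.07. When only genes averaging 100 or more normalised counts were tested, 72.5% of the 5655 genes tested were called, 26 of the 30 list genes left (86.7%) and 5 of the 8 members left (62.5%).

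Of the 20 structural genes, 12 were higher, 7 lower and 1 (Pdzk1ip1) was not called, a share of 95% called. The largest rises and the largest falls both included genes of actin-associated proteins. Cobl, an actin nucleator, rose from 95.6 ± 19.5 in young (SD, n = 4) to 230.4 ± 39.1 in old (SD, n = 5), a log2 fold change of 1.26. Espn, the actin bundler espin, rose by 1.002 on the log2 scale, and Baiap2l1, which links the membrane to actin, by 0.81. The largest falls were in the myosin gene Myo1d (-1.15), the microvillar adhesion gene Tmigd1 (-1.14) and Baiap2l2 (-0.92), a close relative of Baiap2l1. Partners of Ush1c, chosen after their values were seen, were mixed. The motor Myo7b (0.35, adjusted p 0.0278) and the adaptor Anks4b (0.64, 0.00462) were higher by limma, though the groups of each overlapped. The light chain Calml4 was lower (-0.55, adjusted p 0.00039 by limma). Beside these stood the fall of Cdhr5 and the rise of Ush1c, whose call depended on single libraries.

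Of the 15 hydrolase genes, 5 were higher, 6 lower and 4 (Ggt1, Xpnpep2, Cltrn and Enpp1) were not called, a share of 73.3% called. The shares to set beside it are the same 59.7% of all genes and the 72.5% of genes averaging 100 or more normalised counts. Anpep, the aminopeptidase N gene, stood at 342 ± 73.6 in young (SD, n = 4) and 91.1 ± 19.4 in old (SD, n = 5) and fell by a log2 fold change of -1.90 close to that of Mep1b. The angiotensin-converting enzyme gene Ace fell (-1.60). Other large falls and rises were in Acy3 (-1.21), an aminoacylase gene, Alpl (0.99), which encodes alkaline phosphatase, and Folh1 (0.79), a glutamate carboxypeptidase gene. The groups of Folh1 overlapped.

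**Figure D3:**
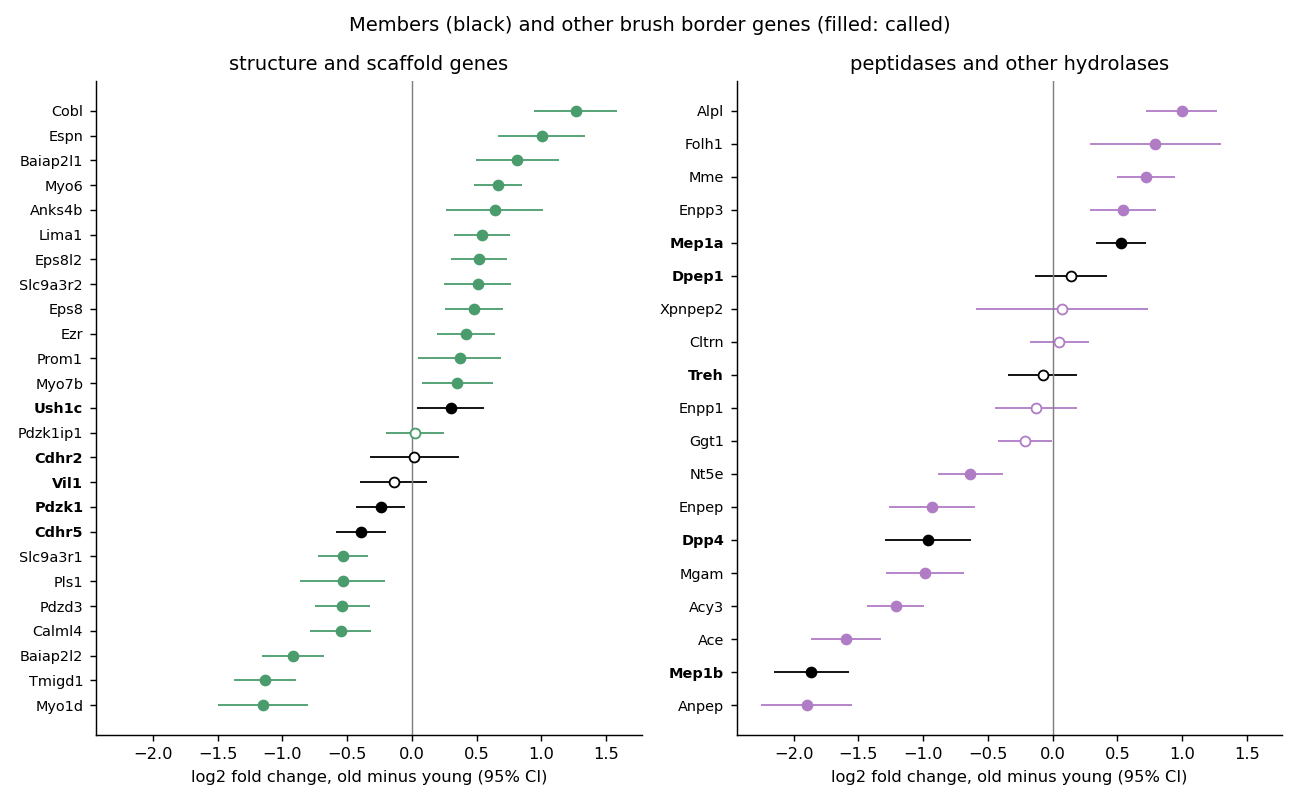
Log2 fold change of old minus young (x axis) with its 95% confidence interval from limma for the members (black, bold names) and for the other structural genes (green, left) and hydrolase genes reported here (violet, right), with filled points for genes called at an adjusted p-value under 0.05. The values run from -1.90 for Anpep to 1.26 for Cobl, and the members span -1.86 to 0.53.

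Other proximal tubule genes differed in both directions too. Of a reference list of 20, 6 were higher, 11 lower and 3 not called, with log2 fold changes from -1.62 for Pck1 (gluconeogenesis) to 1.63 for Slc5a12 (lactate uptake) and a median of -0.33. The mean log2 level of the list was 11.94 to 12.03 in young and 11.69 to 11.91 in old libraries. Its part in the members' values was not tested beyond centring each library on it, which moved the median of all genes by 0.16. With that centring Mep1b (-1.71), Dpp4 (-0.81), Cdhr5 (-0.24), Mep1a (0.68) and Ush1c (0.45) kept their calls, Pdzk1 lost its call and Dpep1 gained one (0.30, adjusted p 0.0404 by limma). This centring shifts all genes alike, and relative to the median of all genes Pdzk1 was at -0.24 and Dpep1 at 0.14 both with and without it. When libraries were scaled on nuclear genes alone the median moved by 0.14. Of all calls 48.9% were higher in the main test, 58.5% with nuclear scaling and 59.9% with centring. Relative to the moved median of nuclear scaling Pdzk1 was at -0.23, Cdhr5 at -0.39 and Ush1c at 0.30 on the log2 scale.

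Markers of other cells are given beside the 59.7% of all genes that were called (29.2% higher, 30.5% lower), and with a handful of genes each their counts set no list apart. Of the listed genes, 5 of 8 endothelial and 3 of 7 immune markers were higher and 0 were lower. Of the thick ascending limb list 2 of 6 were higher and 1 lower, of the collecting duct principal cell list 1 of 7 higher and 3 lower, of the podocyte list 3 of 6 higher and 1 lower, and of the tubular injury list, of which 4 of 7 genes were in the table, 3 higher and 1 lower. In the distal convoluted tubule list 4 of 6 were higher and 2 lower, and in the intercalated cell list 1 of 7 was higher and 5 were lower. The summed adipocyte markers ranged from 271 to 1456 normalised counts in young and from 56.9 to 1114 in old libraries, highest in young replicate 2 and old replicate 3. Old replicate 3 also had the highest Aqp2, a collecting duct gene, at 2267. Without these 2 libraries Mep1b, Dpp4, Cdhr5 and Mep1a were still called, while Pdzk1 (-0.23, adjusted p 0.0768) and Ush1c (0.30, 0.0642) were not. All 9 libraries held reads of 4 Y-linked genes (at fewest 20, for Kdm5d), so each held RNA of a male mouse, and the table has no Xist entry. Of 11 sex-linked and androgen-regulated genes on a list chosen with earlier results known, 4 were higher, 6 lower and 1 (the Y-linked Eif2s3y) not called. The 6 lower genes were Kap (-0.69), Slco1a1, Cyp7b1, Slc22a28, Acsm3 and Cyp4b1 (-2.36). The 4 higher genes were the Y-linked Ddx3y (0.43), Kdm5d (1.43) and Uty (0.42) and Slc7a12, which averaged 3.95 normalised counts in young and 27.7 in old kidneys. The part of these in the members' differences was not tested.

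**Figure D4:**
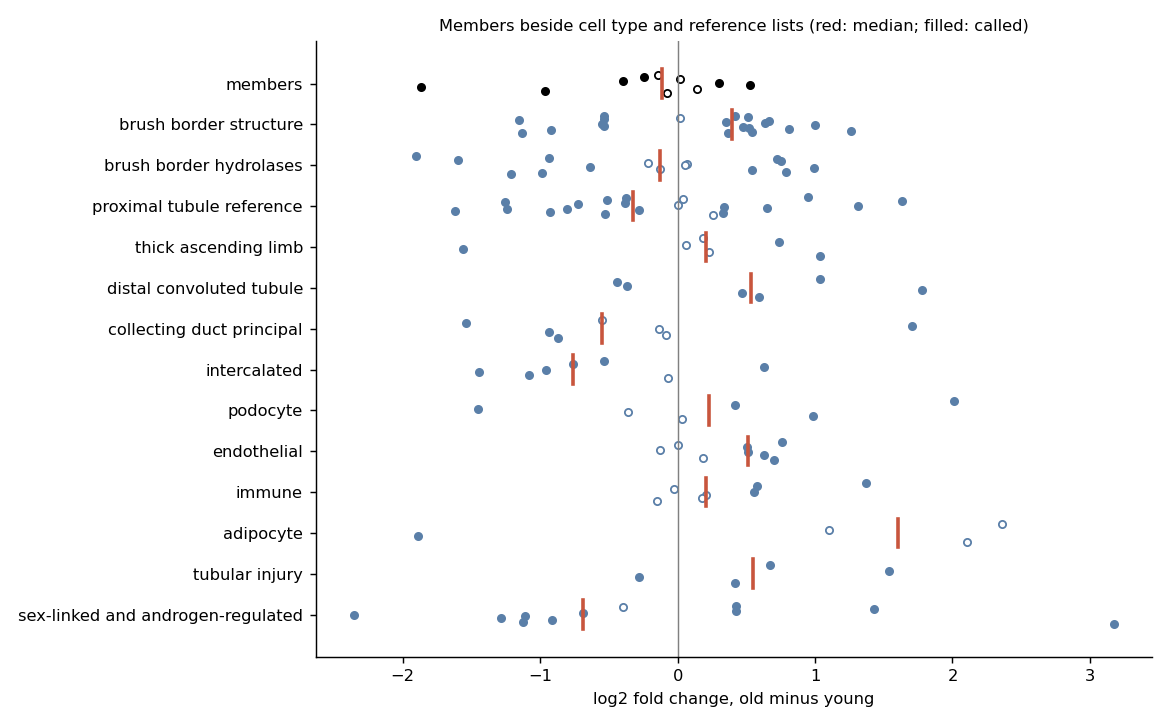
Log2 fold change of old minus young (x axis) for each tested gene of the members and of the cell type and reference lists (rows), with filled points for called genes and a red line at each list's median. The members' median is -0.11, that of the proximal tubule list -0.33 and that of the endothelial list 0.51.

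**Figure D5:**
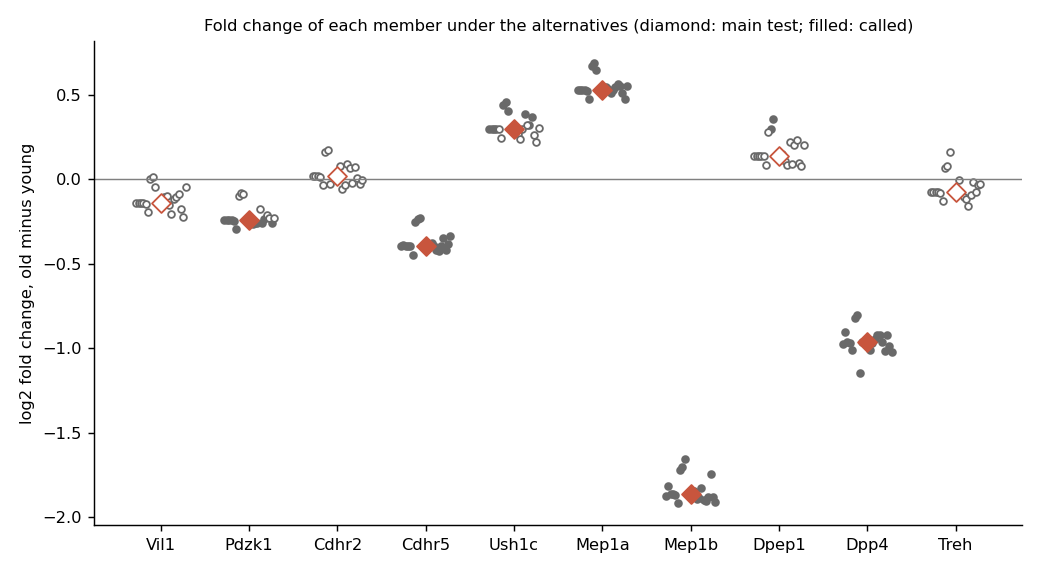
Log2 fold change of old minus young (y axis) of each member in the main test (diamonds) and under the alternative settings (circles), filled where the gene was called. Mep1b, Dpp4, Cdhr5 and Mep1a are filled throughout, Pdzk1 and Ush1c only in part, and Vil1, Cdhr2 and Treh have values on both sides of 0.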

How the data were processed

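Kidney RNA of 9 wild-type mice was measured by 3′-end sequencing. Per the labels and methods, the authors aligned reads to GRCm39 with TopHat2 (2.0.10), counted them by strand with HTSeq (0.6.1) on GENCODE vM26 and normalised them (the methods name DESeq, the labels DESeq2). The kit version differs between methods and labels. What was deposited is a count-like signal, scaled per library and not pooled. Whole reads were recovered by dividing by each library's smallest positive value, and 100% of values came out whole within 0.01. The lowest gene mean was 4.49; a low-count filter before deposit is not given in the sources used here, and totals cover listed genes only. A floor of 3 reads was 4.72e-05% to 6.69e-05% of a library's reads, for counting error only.

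Groups came from the ages in the labels. The main test was limma 3.58.1 in R 4.3.3 (trend) on log2(normalised count + 1) without covariates, for genes that reached 10 normalised counts in 4 or more libraries, with Benjamini-Hochberg adjustment over all of them. A gene is called at an adjusted p-value under 0.05. Fold changes on this scale understate those of low genes. Within-library ratios were tested by exact permutation over 126 splits (scipy 1.17.1). Alternatives were pseudocounts of 0.1 and 5, other filters, scalings and a length trend (lengths for 98.3% of genes, GENCODE vM21), edgeR 4.0.16 and DESeq2 1.42.0 on recovered reads, and leaving out libraries. Positions are from GENCODE vM21 on GRCm38, matched by symbol, which is not the authors' build. Members, lists and ratios were chosen with earlier results of these data known. The named list genes are the 3 largest falls and rises per brush border list (called, mean 50 or more), the ends of the range in other lists, and further genes chosen after their values were seen. Some genes and 1 of their lists are not reported here. Leaving out young replicate 2 and old replicate 3 together was chosen after the data were seen. Tests were checked on simulated data.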

Additional observations from a re-analysis of the deposited data

Results flagged for a closer look

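In 4 of 80 sets of 4 or 5 libraries of an age, the most extreme library stood apart: the distance to its neighbour took up an unusually large part of the whole spread, given here as the gap ratio. Chance gives about 1 in 20, or 4 groups, so each may be chance. Pdzk1 stood at 11.34 on the log2 scale in young replicate 4 and at 11.08 to 11.10 in the other young libraries (gap ratio 0.909), and its call was lost without that library. Old replicate 4 had the lowest Mep1b, 6.03 against 6.56 to 6.67 elsewhere in old (0.830), and without it the log2 fold change was -1.75. Old replicate 5 had the highest Ace, 7.21 against 6.67 to 6.80 (0.751). The mean log2 level of immune markers was 6.96 in young replicate 1 and 6.83 in the others (0.939).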

How the results depend on the processing

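No paired analysis was possible because nothing in the labels ties a young library to an old one. The replicate numbers used here only count the libraries within an age.

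The number of genes called was 7568 in the main test and 4101 when only genes averaging 100 or more were tested, which leaves fewer genes (5655). Over all alternatives 54% to 72.5% of genes were called, and 4 to 6 members were called, 3 to 4 of them lower. With TMM factors, with table totals and without young replicate 2 and old replicate 3, the members called higher numbered 1 in place of 2, since Ush1c lost its call. Leaving out 1 library gave 1 to 2, and centring on the proximal tubule list or removing the length trend gave 3, with Dpep1. TMM factors and table totals shift all genes alike, and relative to the median of all genes Ush1c was at 0.30 with both and in the main test. The wider lists had 26 to 31 calls (30 in the main test), the fewest where 30 of their 35 genes were tested.

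Of the members that were not called, Vil1 turned to 0.00 with mitochondrial genes left out and 0.02 (0.015) centred on the proximal tubule list. Treh turned to 0.064, 0.079 and 0.16 with these settings and with the length trend removed, in that order. The first 2 settings shift all genes alike, and relative to the median of all genes Vil1 stayed at -0.14 (-0.135 and -0.139) and Treh at -0.07 and -0.08 (-0.071 and -0.075). Cdhr2 turned to -0.03 with table totals (-0.034, but 0.02 relative to the median of all genes, as in the main test), to -0.03 with the length trend removed (-0.026), to -0.01 without the 2 libraries named above (-0.006), and ran from -0.059 to 0.087 with 1 library left out. Pdzk1 also lost its call with mitochondrial genes left out (-0.10, adjusted p 0.35 by limma) and with the length trend removed (-0.09, 0.405), while Dpep1 was called with the latter (0.35, 0.0308).

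With 1 library left out the Mep1a to Mep1b difference ran from 2.26 to 2.47, Dpep1 to Dpp4 from 1.01 to 1.24, Cdhr2 to Cdhr5 from 0.32 to 0.51 and Vil1 to Ush1c from -0.59 to -0.34 on the log2 scale. The unadjusted exact permutation p of the Cdhr2 to Cdhr5 ratio, 0.0476 with all libraries, was 0.0286 without old replicate 1 and 0.0714 to 0.107 without any other single library. Vil1 to Ush1c passed without young replicate 4 (-0.59, exact permutation p = 0.0357). Without young replicate 2 and old replicate 3 no ratio could go below an exact permutation p of 0.0571, and the differences were 2.46, 1.22 and 0.33 for the first 3. Differences in Cdhr2 and Dpp4 rest on at most 112 reads per library.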
